A study of Mus musculus with 24 samples.

Results

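The Ifit genes code for interferon-induced proteins with tetratricopeptide repeats, and 5 of them were followed here in ID8 cells: Ifit1, Ifit2, Ifit3, Ifit3b and Ifit1bl1. They were chosen by gene symbol, and each was measured by 1 array probe among 14425 genes that passed the filter on dim probes. ID8 is a mouse line grown from ovarian surface epithelial cells that turned malignant in culture. Cells were plated at 150000 per well, kept for 24 h in medium with 4% serum, and were then treated for 3 h with recombinant mouse interferon (IFN) epsilon or with IFN beta. Each was given at doses of 10, 100 and 1000 IU/ml, and untreated cells received the PBS vehicle. All groups are the same unmodified line, so its own receptors and a short treatment in culture are the model. Of 24 single-colour arrays, 2 carry a label that excludes them, both of replicate 3 and treated with IFN beta, one with 10 and one with 100 IU/ml. The other 22 arrays gave 19 biological samples: 3 in each group, but 2 at 10 and 2 at 100 IU/ml IFN beta. Each untreated sample was measured on 2 arrays, which were averaged. Replicates 1, 2 and 3 were made on separate dates, and wells of a treatment were pooled before measurement, per the series' design text.

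Type I interferons bind a receptor of Ifnar1 and Ifnar2, whose kinases Jak1 and Tyk2 act through ISGF3, a factor that holds Stat2 and Irf9 and switches on genes carrying an interferon-stimulated response element. IFIT proteins are products of that response: they bind RNA or translation factors and hold back viral messages. Ifit1 recognises RNA whose cap lacks ribose methylation, Ifit2 binds RNA rich in A and U, and Ifit3 in human cells stabilises IFIT1 on its RNA. Ifit3b is a near copy of Ifit3, and Ifit1bl1 is a gene related to Ifit1 whose own role is less well described. IFN beta is made by many infected cells, while epithelial cells of the uterus and vagina produce IFN epsilon.

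The letters at the start sites of the 5 genes are shown first, since the genes lie in 1 cluster on chromosome 19. RefSeq start-site windows (build GRCm38.p6, 250 bases before to 50 after each annotated start) were found for 5 of the 5 genes. They were searched on both strands for GAAA, any 2 bases and GAAA again, which reads TTTC, any 2 bases and TTTC on the other strand. These are the core letters of the interferon-stimulated response element, and they overlap the GAAANN unit of sites for interferon regulatory factors. The motif was found for 4 of the 5 genes, and in 3.99% of the 27025 genes with a window. Capitals mark the motif within stretches of 30 bases, printed in the direction of the gene:
Ifit1, 104 bases before the start, chr19:34640775-34640804, plus strand: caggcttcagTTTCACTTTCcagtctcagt
Ifit1, 85 bases before the start, chr19:34640794-34640823, plus strand: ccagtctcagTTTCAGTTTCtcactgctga
Ifit3, 156 bases before the start, chr19:34583363-34583392, plus strand: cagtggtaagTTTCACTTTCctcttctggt
Ifit3, 122 bases before the start, chr19:34583397-34583426, plus strand: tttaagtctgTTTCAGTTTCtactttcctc
Ifit1bl1, 104 bases before one start, chr19:34602053-34602082, minus strand: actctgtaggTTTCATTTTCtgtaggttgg
Ifit1bl1, 23 bases before another start, chr19:34599431-34599460, minus strand: actctgtaggTTTCATTTTCtgtaagttgg

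The windows of Ifit3 and Ifit3b were the same at 259 of 260 aligned bases, with 80 gap positions in the alignment. Both printed Ifit3 stretches recur letter for letter before Ifit3b, at 188 and 154 bases before its start. Neither of the windows of Ifit2 held the motif, which says only that these letters are not in those 300 bases. A match is a description of the sequence: no binding was measured here. Because Ifit3b is a near copy of Ifit3, their probes may share signal, and the single values of each are uncertain. The likeness of their transcripts was not measured here. Probe sequences were not used here, so how far the probes share signal was not tested.

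Across the 22 arrays the 75th percentile of intensity, which scales each array below, lay between 643.5 and 1221, and 50.1% to 58.8% of probe spots were well above background. Of 10 markers of ovarian surface epithelial and mesothelial cells, 9 were well above background on all 22 arrays, among them Krt8, Krt18, Wt1 and Msln, and Pax8 was above it on 2. Of the leukocyte markers, Ptprc was above background on 0 arrays, Adgre1 on 1, and Cd68, Cd3e and Itgam on all 22. Of the endothelial markers, Cdh5 was above it on 0 arrays, Tek on 1, Pecam1 on 21 and Kdr on 22. Pax8, Ptprc, Adgre1, Cdh5 and Tek were too dim to be tested. Limma called 0 of the other markers named here in any comparison with untreated cells. In such bulk samples, fewer cells making a transcript and less of it per cell cannot be told apart. Nothing in the labels says that replicates came from separate stocks of cells.

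Untreated cells of replicate 3 stood apart for Ifit1, Ifit3 and Ifit3b, and this touches every comparison with untreated cells. Levels are given throughout as log2 signal minus the array's 75th percentile, in the order of replicates 1, 2 and 3. For Ifit1, untreated cells gave -2.41, -2.55 and -0.53, so that replicate 3 lay 1.95 above the mean of the others, or 3.86-fold. The same gap was 2.27 for Ifit3 and 2.40 for Ifit3b, but 0.07 for Ifit2. For Ifit1bl1, which was not well above background on any untreated array, the gap of 1.22 was no larger than the difference of 1.28 between the arrays of untreated replicate 2. Over all genes tested the median gap was 0.07, and over 18 RNA-sensing genes it was 0.28, with 12 above 0. The 2 arrays of replicate 3 differed by 0.13 or less for the 4 genes other than Ifit1bl1. Without that sample limma called 1, 4 and 5 of the 5 genes at 10, 100 and 1000 IU/ml IFN epsilon and 0, 0 and 4 at those doses of IFN beta, where with it the counts were 0, 4 and 5 and 0, 0 and 5. The log2 changes at 1000 IU/ml IFN epsilon then ran from 4.08 for Ifit2 to 9.14 for Ifit3b among those 4 genes. With every kept sample 29, 152 and 333 of all genes were called with IFN epsilon and 0, 16 and 230 with IFN beta. Across the fits with replicates left out these counts ran from 0 to 40, 8 to 158 and 36 to 364 with IFN epsilon. With IFN beta they were 0, 0 to 48 and 24 to 318.

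IFN epsilon raised 4 of the 5 Ifit transcripts at 100 IU/ml and all 5 at 1000 IU/ml. Group means were higher at each higher dose, but the steps between doses did not pass the test without a block. Ifit1 went from -2.41, -2.55 and -0.53 in untreated cells to 0.59, 2.32 and 3.15 at 10 IU/ml, 3.11, 5.13 and 5.13 at 100 IU/ml and 4.75, 5.46 and 5.60 at 1000 IU/ml. Every treated sample lay above every untreated one, and replicate 1 was the lowest at each dose. At 10, 100 and 1000 IU/ml such an order against untreated cells was seen for 1.77%, 3.29% and 6.2% of all genes. The same shares stand beside the orders given below for Ifit3 and Ifit2. The fitted log2 changes were 3.85 ± 0.78 (SE), 6.29 ± 0.78 and 7.10 ± 0.78 with n = 3 against 3, which is 14.4-, 78.1- and 137-fold.

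Ifit3 rose at 100 and 1000 IU/ml. Its untreated levels of -2.03, -2.58 and -0.04 compare with 0.34, 1.81 and 3.92 at 10 IU/ml, 4.00, 5.65 and 6.31 at 100 IU/ml and 5.99, 6.38 and 6.81 at 1000 IU/ml. Replicate 3 was the highest at each dose, and the groups treated with IFN epsilon did not overlap the untreated one. The log2 changes were 3.57 ± 0.91, 6.87 ± 0.91 and 7.94 ± 0.91. Its near copy Ifit3b gave 3.84 ± 0.94, 7.07 ± 0.94 and 8.34 ± 0.94, from untreated levels of -3.34, -3.91 and -1.23 to 4.94, 5.66 and 5.92 at 1000 IU/ml. Between these lay -0.58, 0.86 and 2.75 at 10 IU/ml and 2.87, 4.59 and 5.27 at 100 IU/ml, again lowest in replicate 1.

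Ifit2 changed least, on the log2 scale, of the 5 at each dose of IFN epsilon. From -0.69, -0.66 and -0.60 in untreated cells it reached -0.14, -0.09 and 0.63 at 10 IU/ml, 0.74, 2.34 and 2.63 at 100 IU/ml and 2.82, 3.76 and 3.64 at 1000 IU/ml. Untreated replicates lay within 0.08 of each other, and no treated sample fell among them. The log2 changes were 0.78 ± 0.67, 2.55 ± 0.67 and 4.06 ± 0.67, or 1.72-, 5.88- and 16.7-fold. No test of the difference between genes was made.

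Ifit1bl1 was well above background on 0 of 6 untreated arrays and on 3 of 3 at each dose of IFN epsilon, so its rise is given as a bound. Its untreated signal was taken as no higher than the lowest signal that counted as well above background on each untreated array. On that basis it stood at least 4.35-fold higher at 10 IU/ml, at least 54.5-fold higher at 100 IU/ml and at least 286-fold higher at 1000 IU/ml. A probe that did not count may still lie above that lowest signal, so these bounds are not strict. Under other processing choices the lowest log2 changes were 1.03, 4.00 and 6.19 at the 3 doses, below the bounds of 2.12, 5.77 and 8.16. Measured levels were -7.16, -7.41 and -6.06 in untreated cells, -4.44, -3.35 and -2.71 at 10 IU/ml, -1.29, 0.46 and 1.28 at 100 IU/ml and 2.47, 2.68 and 2.46 at 1000 IU/ml. At the top dose its 3 replicates agreed within 0.22, while those at 100 IU/ml spread over 2.57.

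**Figure D1:**
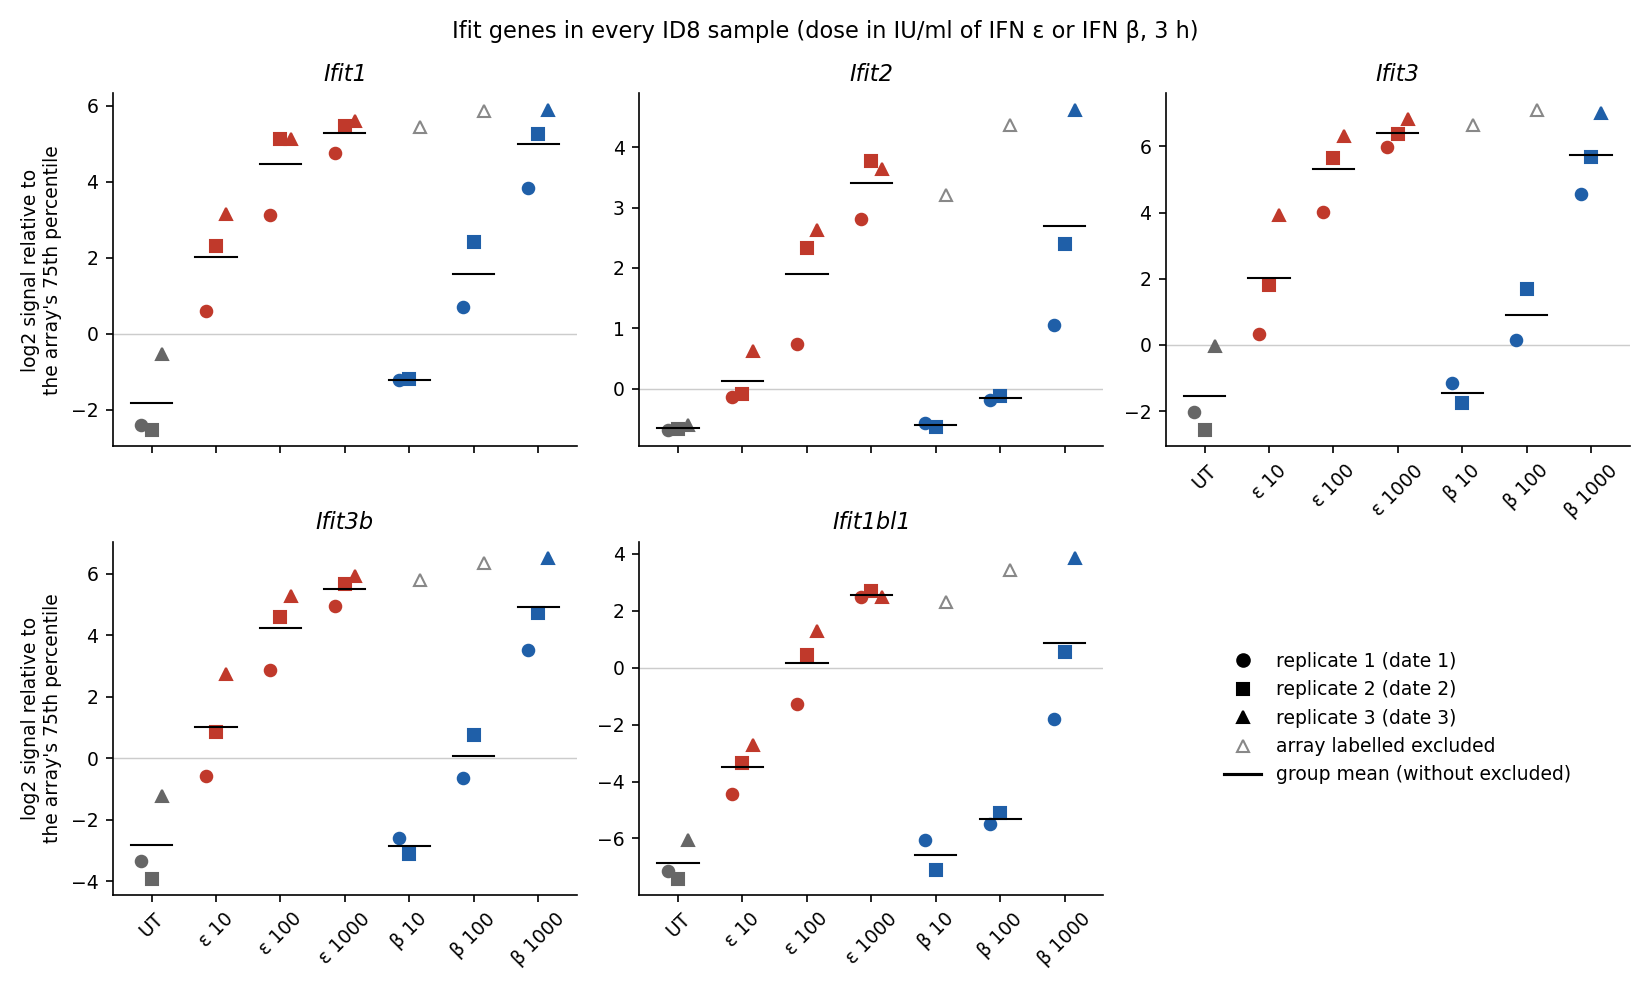
Log2 signal relative to the array's 75th percentile for each Ifit gene (vertical axis, own scale per panel) in untreated cells and at 10, 100 and 1000 IU/ml of IFN epsilon (red) or IFN beta (blue). Symbols give the replicate, bars the group mean, and open triangles the 2 arrays labelled excluded, which for Ifit1 stand at 5.43 and 5.86 against 2.41 or less in the samples kept at those doses.

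In the test across all genes (limma, Benjamini-Hochberg adjusted p under 0.05, called), 0 of the 5 genes were called at 10 IU/ml IFN epsilon, where 0.201% of all genes rose. At an unadjusted p under 0.05 there were 4, beside 152 of all genes. Among the 4 was Ifit1bl1, whose untreated signals were not well above background. For the 4 genes other than Ifit1bl1 every treated sample lay above every untreated one, an order seen for 1.77% of genes. With the replicate number as a block, which pairs samples of a date, limma called Ifit1 (adjusted p = 0.000848), Ifit3b (0.0026) and Ifit3 (0.00503), against 0.499% of all genes. Ifit1 was also called without untreated replicate 3 (log2 change 4.50, adjusted p = 0.046) and without replicate 1 at 10 IU/ml (4.57, adjusted p = 0.0322). On each date the change was above 0 for the 4 genes other than Ifit1bl1, from 0.55 to 4.87. The genes share these samples and are not replicates of each other.

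At 100 IU/ml IFN epsilon limma called 4 of the 5 genes, where 1.05% of all genes rose. The adjusted p was 0.000364 for Ifit1, 0.000704 for Ifit3, 0.000727 for Ifit3b and 0.00156 for Ifit1bl1. The calls of Ifit1bl1 at this dose and at 1000 IU/ml rest on untreated signals that were not well above background. Ifit2 did not pass without a block (adjusted p = 0.146) and passed with it (0.0271), so the blocked count was 5, against 1.48% of all genes. At 1000 IU/ml all 5 were called with and without the block, while 2.24% of all genes rose (4.53% with the block) and 0.0693% fell (3.58% with the block), with adjusted p from 5.75e-05 for Ifit1 to 0.00248 for Ifit2. The median log2 change of the 5 genes was 3.57, 6.87 and 7.94 at the 3 doses (3.57, 6.29 and 7.94 with Ifit1bl1 at its lower bound), beside -0.0028, -0.06 and -0.05 over all genes tested. The counts at 100 and 1000 IU/ml fell to 0 when all samples of replicate 2 were left out. The log2 changes at 1000 IU/ml then ran from 3.88 for Ifit2 to 7.72 for Ifit3b among the 4 genes other than Ifit1bl1. At these doses leaving out replicates took the number of all genes called from 152 and 333 to as few as 8 and 36.

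IFN beta raised all 5 transcripts at its top dose, and at its lowest dose no change was detected for any of them. Ifit1 stood at -1.22 and -1.20 at 10 IU/ml, 0.71 and 2.41 at 100 IU/ml and 3.82, 5.27 and 5.90 at 1000 IU/ml. The samples at 10 IU/ml lay between untreated replicates 1 and 2 on the one side and untreated replicate 3 on the other. Those at 100 and 1000 IU/ml lay above all untreated samples, an order seen for 4.2% and 5.42% of all genes. The same shares stand beside the orders given below for Ifit3, Ifit3b and Ifit2. The log2 changes were 0.62 ± 0.87 (n = 2 against 3), 3.39 ± 0.87 (n = 2 against 3) and 6.83 ± 0.78 (n = 3 against 3).

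Ifit3 measured -1.14 and -1.74 at 10 IU/ml IFN beta, 0.15 and 1.68 at 100 IU/ml and 4.56, 5.68 and 7.01 at 1000 IU/ml. Ifit3b measured -2.61 and -3.13, then -0.63 and 0.76, then 3.51, 4.72 and 6.52. For both genes the samples at 10 IU/ml fell within the range of untreated cells, and the higher doses lay above it. Ifit3 changed by 0.10 ± 1.02, 2.46 ± 1.02 and 7.30 ± 0.91 on the log2 scale, and Ifit3b by -0.04 ± 1.06, 2.90 ± 1.06 and 7.74 ± 0.94.

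Ifit2 measured -0.57 and -0.63 at 10 IU/ml and -0.19 and -0.13 at 100 IU/ml, beside 1.05, 2.40 and 4.62 at 1000 IU/ml. The first pair overlapped untreated cells and the second lay just above them. Its log2 changes were 0.05 ± 0.75, 0.50 ± 0.75 and 3.34 ± 0.67.

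Ifit1bl1 was well above background on 0 of 2 arrays at 10 IU/ml IFN beta, 2 of 2 at 100 IU/ml and 3 of 3 at 1000 IU/ml. Against untreated cells it was, by the same bounds, at least 1.24-fold higher at 100 IU/ml and at least 89.6-fold higher at 1000 IU/ml. These bounds are not strict either. Under other processing choices the lowest log2 changes were 0.09 and 4.63, below the bounds of 0.31 and 6.49. Levels were -6.05 and -7.12, then -5.50 and -5.11, then -1.80, 0.54 and 3.85. The 3 samples at the top dose spread over 5.66, against 0.22 for IFN epsilon at that dose, and replicate 3 was the highest sample for all 5 genes.

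At 10 IU/ml IFN beta limma called 0 of the 5 genes, and 0 at an unadjusted p under 0.05, while 0.0% of all genes rose and 48 had an unadjusted p under 0.05. On both dates, though, the differences from untreated cells were above 0 for every gene other than Ifit1bl1, from 0.03 to 1.35. Within array slides, which do not match dates, their differences took both signs, from -0.87 to 1.44. The negative ones were all on the slide where replicate 2 of IFN beta stood against untreated replicates 1 and 3. The genes share these samples and are not replicates of each other. For Ifit1 the differences were 1.20 and 1.35 on the 2 dates, and the interval of its blocked log2 change ran from 0.01 to 2.10. At 100 IU/ml limma called 0 of the 5 without a block, where 0.111% of all genes rose. There were 3 at an unadjusted p under 0.05, beside 183 of all genes. With the block it called 2, Ifit1 (log2 change 3.82, adjusted p = 0.00432) and Ifit3b (3.53, adjusted p = 0.0238), against 0.291% of all genes.

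At 1000 IU/ml IFN beta all 5 genes were called with and without the block, while 1.58% of all genes rose, or 2.79% with the block, and 0.0139% fell, or 0.652% with the block. Adjusted p ran from 0.000118 for Ifit1 to 0.0164 for Ifit2. The call of Ifit1bl1 rests on untreated signals that were not well above background. The call for Ifit2 was lost without any 1 of the untreated samples (adjusted p 0.0657 to 0.0681), and all 5 were lost without the samples of replicate 2 (log2 changes of 3.48 for Ifit2 to 7.30 for Ifit3b among the 4 genes other than Ifit1bl1). Leaving out replicates took the number of all genes called from 230 to as few as 24. Without the high replicate 3 of this group all 5 Ifit genes were still called, with log2 changes from 2.38 for Ifit2 to 6.94 for Ifit3b. When only these 2 groups were fitted, limma called 2 of the 5. The median log2 change of the 5 genes was 0.10, 2.46 and 7.30 at the 3 doses of IFN beta (6.83 at the top dose with Ifit1bl1 at its lower bound), and -0.0013, -0.03 and -0.04 over all genes tested.

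**Figure D2:**
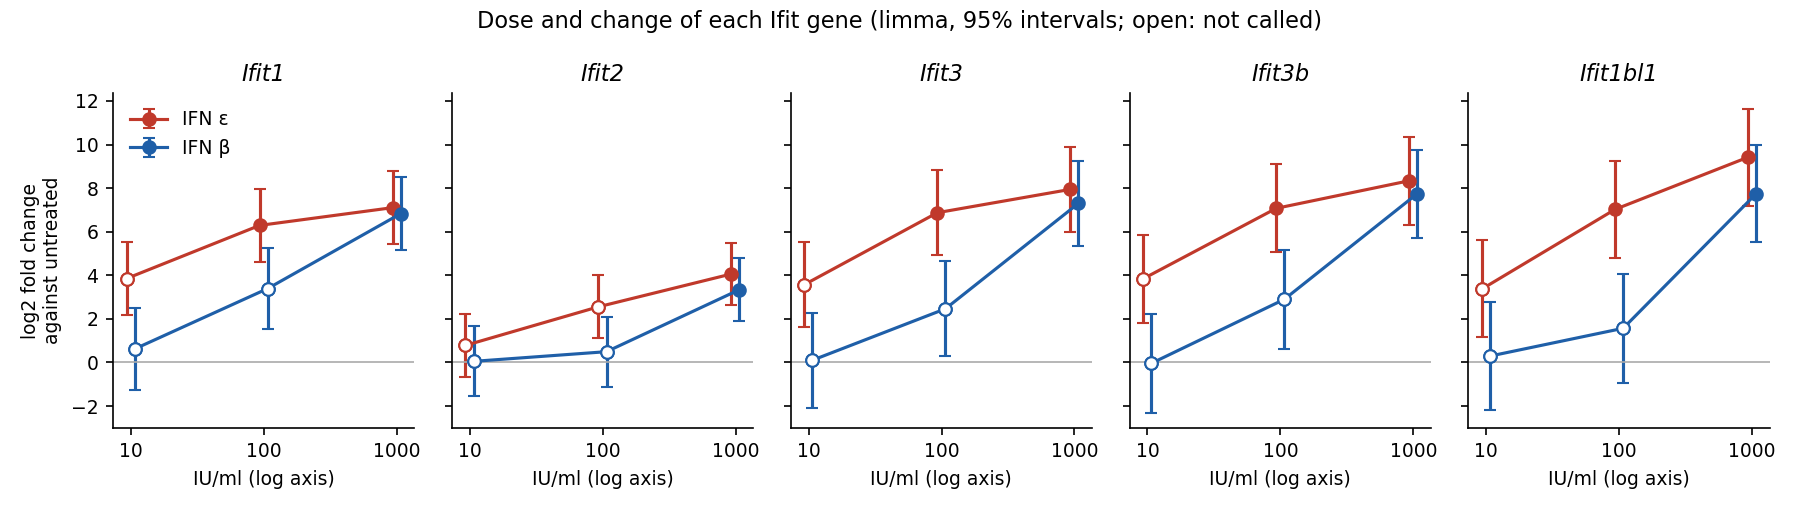
Log2 fold change against untreated cells (vertical axis) by dose in IU/ml (logarithmic horizontal axis) for IFN epsilon (red) and IFN beta (blue), with 95% intervals from limma. Filled points were called and open points were not; at 1000 IU/ml all 10 points are filled, and at 100 IU/ml 4 of the 5 for IFN epsilon and 0 of the 5 for IFN beta. Points of Ifit1bl1 use measured untreated signals that were not well above background.

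IFN epsilon and IFN beta were then compared with each other at equal doses, 3 pairs of groups in all. At 10 IU/ml Ifit1 measured higher with IFN epsilon by 3.23 ± 0.87 on the log2 scale (9.38-fold), Ifit2 by 0.73 ± 0.75, Ifit3 by 3.47 ± 1.02 and Ifit3b by 3.88 ± 1.06. These gaps are not matched by date, since IFN beta at this dose has no kept sample of date 3. With the replicate block they were 2.80 for Ifit1, 0.39 for Ifit2, 2.86 for Ifit3 and 3.24 for Ifit3b. By a bound of the same kind, which is not strict, Ifit1bl1 was at least 4.51-fold higher with IFN epsilon. All samples of IFN epsilon lay above all samples of IFN beta for the 4 genes other than Ifit1bl1, an order seen for 2.84% of all genes. For Ifit1bl1, counted in the tests below, the signals at 10 IU/ml IFN beta were not well above background. Limma called 0 of the 5, where 0.0971% of all genes were higher. There were 4 at an unadjusted p under 0.05, beside 137 of all genes. With the block limma called 0 (0.118% of all genes), and Ifit1 came to an adjusted p of 0.0585 and Ifit3b to 0.0642.

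At 100 IU/ml the gaps were 2.90 ± 0.87 for Ifit1, 2.06 ± 0.75 for Ifit2, 4.41 ± 1.02 for Ifit3, 4.17 ± 1.06 for Ifit3b and 5.46 ± 1.16 for Ifit1bl1, all higher with IFN epsilon. These gaps too are not matched by date. With the replicate block they were 2.46 for Ifit1, 1.72 for Ifit2, 3.80 for Ifit3, 3.54 for Ifit3b and 4.89 for Ifit1bl1. Here 5 of 5 genes had groups that did not overlap, against 5.19% of all genes. Limma called 0 of the 5 without a block, beside 0.0901% of all genes. There were 5 at an unadjusted p under 0.05, beside 420 of all genes. With the block it called Ifit3 (log2 difference 3.80, adjusted p = 0.0197) and Ifit3b (3.54, adjusted p = 0.0229), beside 0.367% of all genes. Ifit1bl1 missed the threshold with the block (adjusted p = 0.0521) and passed it without the samples of replicate 3 (4.89, adjusted p = 0.0383).

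On both dates with kept samples of each interferon, IFN epsilon gave the higher value at 100 IU/ml for all 5 genes. At 10 IU/ml it did so on both dates for the genes other than Ifit1bl1. The genes share these samples and are not replicates of each other. For Ifit3 at 100 IU/ml the difference was 3.85 on one date and 3.98 on the other. These comparisons rest on 2 samples of IFN beta per dose, and the arrays that would be the third are the ones labelled excluded. With all 24 arrays limma called 0 of the 5 at either dose, and the difference at 10 IU/ml became 1.02 for Ifit1 and -0.54 for Ifit2. At 100 IU/ml it became 1.46 for Ifit1 and 2.34 for Ifit3.

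At 1000 IU/ml no difference between the interferons was detected. Limma called 0 of the 5 genes with or without the block and 0 had an unadjusted p under 0.05, while 0.0% of all genes were higher and 192 had an unadjusted p under 0.05. The log2 difference was 0.28 for Ifit1 (95% interval -1.39 to 1.95), 0.72 for Ifit2 (-0.72 to 2.16), 0.64 for Ifit3 (-1.31 to 2.60), 0.59 for Ifit3b (-1.43 to 2.62) and 1.67 for Ifit1bl1 (-0.55 to 3.90). Intervals this wide do not show that the interferons act alike at that dose. The sign differed by date: IFN epsilon was higher for 5 of 5 genes on dates 1 and 2, and IFN beta was higher for 5 of 5 on date 3, where Ifit1bl1 differed by -1.39 and Ifit2 by -0.98. Without that date's sample of IFN beta the difference for Ifit1bl1 was 3.17 (adjusted p = 0.339).

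**Figure D3:**
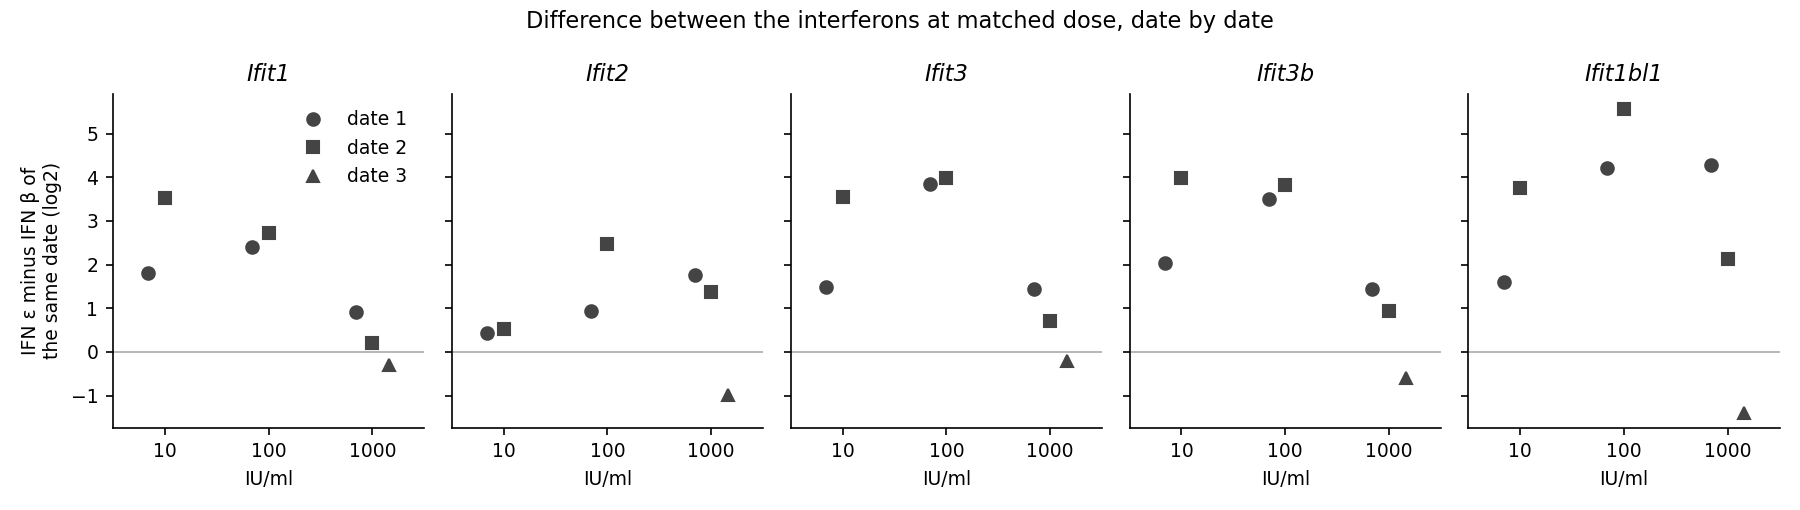
Difference in log2 signal between IFN epsilon and IFN beta at the same dose and date (vertical axis; above 0 means higher with IFN epsilon) for each Ifit gene, at 10, 100 and 1000 IU/ml. All points at 10 and 100 IU/ml lie above 0, and the date 3 points at 1000 IU/ml lie below 0, down to -1.39 for Ifit1bl1.

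Steps of dose were also compared within each interferon. From 10 to 100 IU/ml IFN epsilon the log2 difference was 2.44 ± 0.78 for Ifit1, 1.77 ± 0.67 for Ifit2, 3.30 ± 0.91 for Ifit3, 3.23 ± 0.94 for Ifit3b and 3.65 ± 1.04 for Ifit1bl1. Limma called 0 of these without a block, beside 0.0693% of all genes. There were 5 at an unadjusted p under 0.05, beside 391 of all genes. With the block limma called Ifit1 (adjusted p = 0.0344), Ifit3 (0.0211) and Ifit3b (0.0211), beside 0.367% of all genes. From 100 to 1000 IU/ml the differences were smaller, from 0.81 for Ifit1 to 2.39 for Ifit1bl1. Limma called 0 of the 5 with or without the block, with 0.0% of all genes higher (0.0208% with the block). There were 2 at an unadjusted p under 0.05, beside 431 of all genes. On each date this last step was above 0 for every gene, from 0.34 to 3.77, though the genes share these samples.

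With IFN beta the differences between group means were larger at the upper step for the 4 genes other than Ifit1bl1, which was not well above background at 10 IU/ml. These means are not matched by date. On date 2 the lower step of Ifit1 was 3.61 and the upper 2.86, and with the block they were 2.77 and 3.00. For Ifit2, Ifit3 and Ifit3b the upper step was larger on both dates. The difference between steps was not tested. From 10 to 100 IU/ml the log2 differences ran from 0.44 for Ifit2 to 2.94 for Ifit3b. Limma called 0 of the 5 with or without the block, beside 0.0% of all genes. There were 2 at an unadjusted p under 0.05, beside 133 of all genes. From 100 to 1000 IU/ml they were 3.44 ± 0.87 for Ifit1, 2.85 ± 0.75 for Ifit2, 4.83 ± 1.02 for Ifit3, 4.85 ± 1.06 for Ifit3b and 6.17 ± 1.16 for Ifit1bl1. Limma called Ifit1bl1 alone without a block (adjusted p = 0.0297), beside 0.499% of all genes, and 4 of the 5 with it, beside 0.88%. That call was lost without replicate 1 (adjusted p = 0.413) or 2 (0.104) at 100 IU/ml or replicate 2 at 1000 IU/ml (0.0725). The test of whether the interferons differ in their change from 10 to 1000 IU/ml called 0 of the 5 with or without the block, beside 0.0% of all genes. At an unadjusted p under 0.05 it gave 2 of the 5, beside 131 of all genes. Its estimate for Ifit1 was -2.95 ± 1.17, a smaller change with IFN epsilon.

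Over all kept samples the group means of Ifit1, Ifit2 and Ifit3 followed the same order: untreated, IFN beta at 10, IFN beta at 100, IFN epsilon at 10, IFN epsilon at 100, IFN beta at 1000 and IFN epsilon at 1000 IU/ml. Ifit1bl1 followed it from 100 IU/ml IFN beta upwards, and below that it was not well above background. These means are not matched by date, since IFN beta at 10 and at 100 IU/ml has no kept sample of date 3. On the 2 shared dates Ifit1 was higher with 100 IU/ml IFN beta (0.71 and 2.41) than with 10 IU/ml IFN epsilon (0.59 and 2.32), the reverse of the order of means. For Ifit3b the mean at 10 IU/ml IFN beta lay 0.04 below untreated cells, but within dates it lay above them by 0.74 and 0.79, and its blocked change was 0.60. Neighbours overlapped at the bottom of the order for the 4 genes other than Ifit1bl1 and among the highest 3 groups for all 5. IFN beta at 100 IU/ml and IFN epsilon at 10 IU/ml overlapped for all but Ifit1bl1, and IFN epsilon at 10 and at 100 IU/ml overlapped for Ifit1.

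The 5 genes moved closely together over the 19 samples. Pearson's r between pairs ran from 0.893 (Ifit1 with Ifit2) to 0.999 (Ifit3 with Ifit3b), and from 0.879 to 0.998 after the mean of each date was subtracted. These samples share treatments and dates, so the values are descriptions. Ifit2 was the gene least like the others except Ifit1bl1, with which its r was 0.971.

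Genes next to the Ifit cluster gave a contrast along the chromosome. In the RefSeq order Ch25h and Lipa come first, then Ifit2, Ifit3, Ifit1bl1, Ifit3b, Ifit1bl2, Ifit1, Slc16a12, Pank1 and Kif20b, beside noncoding genes. Of 6 neighbours listed, 5 were tested and Slc16a12 was too dim. Limma called 0 of the 5 in any comparison without a block. With the block, at 1000 IU/ml IFN epsilon, it called Lipa, a lysosomal lipase (0.79 ± 0.11, adjusted p = 0.00116), Ifit1bl2 (0.60 ± 0.14, adjusted p = 0.0235) and Ch25h, which makes an antiviral oxysterol (1.31 ± 0.36, adjusted p = 0.0466), and at 1000 IU/ml IFN beta Lipa alone.

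Ifit1bl2 lies head to head with Ifit1. It has 2 annotated start-site windows: one shares 245 of 300 bases with the window of Ifit1 and holds both motif stretches printed for Ifit1, and the other holds 0 matches. Which start is used was not measured. Ifit1bl2 changed by 0.60 ± 0.21 at 1000 IU/ml IFN epsilon without a block (adjusted p = 0.291), beside 7.10 ± 0.78 for Ifit1, and by 0.46 ± 0.21 at 1000 IU/ml IFN beta (adjusted p = 0.884), beside 6.83 ± 0.78. At 10 IU/ml IFN epsilon it changed by -0.04 ± 0.21. Its profile over the 19 samples had an r of 0.738 with the mean profile of the 5 genes, rank 445 of 14389 genes. The difference between both genes was not tested, and their probes' levels are not comparable.

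**Figure D4:**
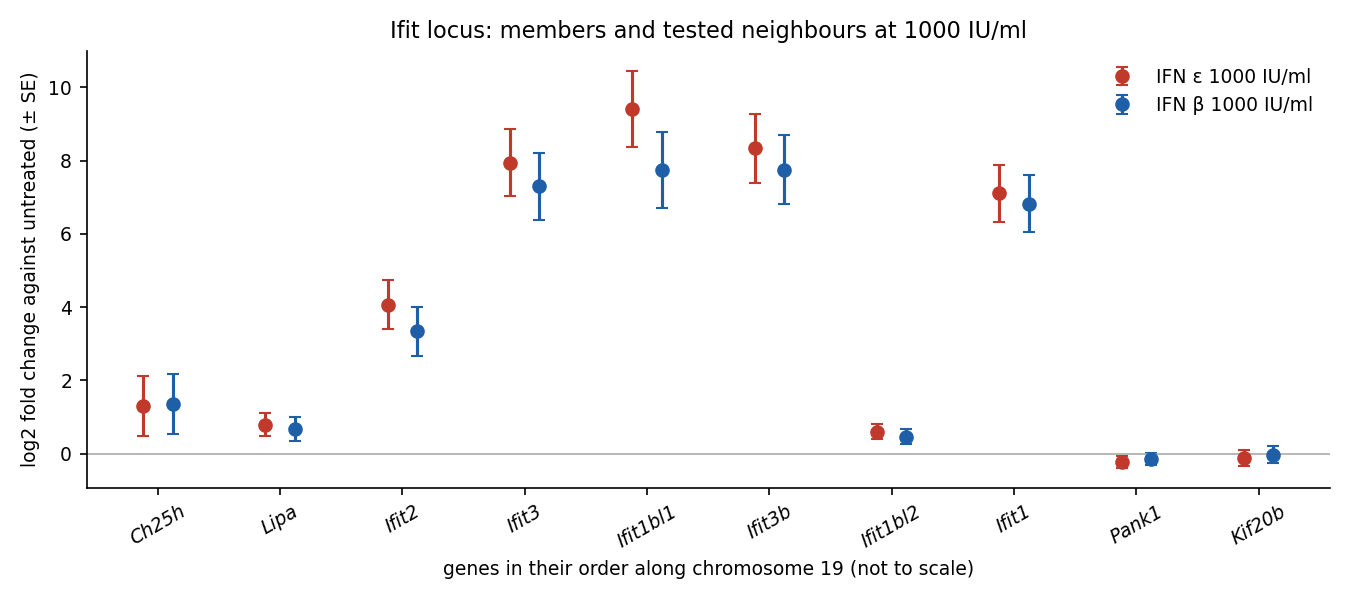
Log2 fold change against untreated cells (vertical axis, ± SE) at 1000 IU/ml IFN epsilon (red) and IFN beta (blue) for the Ifit genes and their tested neighbours, placed in their order along chromosome 19, not to scale. The Ifit genes other than Ifit1bl1 lie between 3.34 and 8.34, and the neighbours, Ifit1bl2 among them, lie at 1.35 or below. Ifit1bl1 is drawn at its measured difference from an untreated signal not well above background (its bounds, which are not strict, are 8.16 and 6.49).

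Some genes upstream of the Ifits rose and others did not pass the test. At 1000 IU/ml IFN epsilon the ISGF3 subunit Stat2 rose by 2.91 ± 0.33, and Irf7, which extends the interferon response, by 3.89 ± 0.35 (adjusted p = 1.07e-05). Irf9, also of ISGF3, rose by 1.64 ± 0.19 (adjusted p = 0.000103). The receptor chains and their kinases were not called at any dose of either interferon, with or without the block, and changed at 1000 IU/ml IFN epsilon by -0.10 (Ifnar1), 0.09 (Ifnar2), -0.11 (Jak1) and 0.05 (Tyk2). The factors Irf1 (0.97, adjusted p = 0.367) and Irf3 (-0.16) did not pass either.

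Among genes that sense or attack foreign RNA, 18 of 19 listed were tested. At 10, 100 and 1000 IU/ml IFN epsilon 6, 16 and 17 of them rose, and with IFN beta 0, 4 and 17. With the replicate block these counts were 12, 16 and 17 and 0, 7 and 17. Over all genes 0.201%, 1.05% and 2.24% rose with IFN epsilon and 0.0%, 0.111% and 1.58% with IFN beta. The shares with the block were 0.499%, 1.48% and 4.53% with IFN epsilon and 0.0%, 0.291% and 2.79% with IFN beta. The median log2 changes of the 18 genes were 1.36, 2.76 and 3.14 with IFN epsilon and 0.27, 1.21 and 2.96 with IFN beta. Each was below the median of the 5 Ifit genes at the same dose except at 10 IU/ml IFN beta. Oas3, a synthetase whose oligoadenylates switch on RNA decay, rose by 3.18 ± 0.27 at 10 IU/ml IFN epsilon (adjusted p = 0.00016), where 0 Ifit genes were called without a block. Beside it, Ifit1 changed by 3.85 ± 0.78 and Ifit2 by 0.78 ± 0.67 at that dose, and genes were not tested against each other.

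Partners of the IFIT proteins in cap recognition and translation mostly did not pass the test. Without a block 2.24% of all genes rose at 1000 IU/ml IFN epsilon and 1.58% at 1000 IU/ml IFN beta. Of 12 partner genes, 2 rose at 1000 IU/ml of each interferon and 0 at lower doses without a block. These were Cmtr1, the enzyme that methylates the ribose next to the cap (0.96 ± 0.19 with IFN epsilon, 0.90 ± 0.19 with IFN beta), and Xrn1, which degrades decapped RNA (0.94 ± 0.16 and 0.79 ± 0.16). With the block 3 rose at 1000 IU/ml of each, with the decapping enzyme Dcp2 added, beside 4.53% of all genes for IFN epsilon and 2.79% for IFN beta. At 100 IU/ml IFN epsilon 2 rose with the block, beside 1.48% of all genes: Cmtr1 by 0.78 (adjusted p = 0.000321) and Dcp2 by 0.62 (adjusted p = 0.00492). Of 8 other proteins with tetratricopeptide repeats outside the family, 0 were called in any comparison with untreated cells, and their log2 changes at 1000 IU/ml IFN epsilon ran from -0.24 to 0.14.

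The genes whose profiles over the 19 samples were most like the mean of the 5 Ifits were Tgtp2, an interferon-induced GTPase (r = 0.997), Ifi205 (0.996), Dtx3l, a ubiquitin ligase (0.995), Ifih1, the sensor of long double-stranded RNA (0.994), and Parp9 (0.994), the partner of Dtx3l. After the mean of each date was subtracted the highest were Cmpk2, Tgtp2, Zbp1, Ifi205 and Phf11c. In all, 201 of the 14389 genes ranked had an r above 0.9, so a high r is not particular to the genes named here. Ifih1 changed by 3.44 and Tgtp2 by 4.59 on the log2 scale at 1000 IU/ml IFN epsilon, beside 4.06 for Ifit2.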

How the data were processed

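Total RNA (100 ng per sample) was labelled with Cy3 for single-colour arrays. The deposited scanner files give each spot's intensity after background subtraction in Feature Extraction (Agilent, version 11.0.1.1), per the file headers, with no normalization between arrays. A deposited table holds the authors' log2 values; R 3.6.1 and limma 3.42.0 are listed in the submitters' processing notes. This table correlated with the scanner values at 0.989 to 0.995 per array, with medians of 5.52 to 5.54. How its background was treated, and whether a constant was subtracted, is unknown, so it served as an alternative.

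Levels are log2 intensity minus the array's 75th percentile. Control spots and outlier spots (79 to 280 per array) were dropped, and 0 spots were saturated. RefSeq accessions named 32994 of 56605 probes, or 22911 genes. The RefSeq tables are of a later build than the one in the array files, so probes are given no coordinates. Probes had to be well above background in 2 or more samples of some group; of several probes for a gene, the brightest on average was taken. The number of arrays limits the precision.

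Replicate numbers stand for dates in the series' design text, so they pair the samples. Same-numbered samples deviated together from their group means (median r 0.473 over 52 pairs of samples, from -0.0617 to 0.766), and those with different numbers did not (median r -0.209, 102 pairs). The sources used here state no model, so values without the date come first, with the replicate block beside them where a call changed.

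Limma 3.58.1 (R 4.3.3; lmFit and eBayes on all 7 groups, 12 residual degrees of freedom) tested 14425 genes in 14 comparisons, adjusted by Benjamini-Hochberg within each, with a threshold of 0.05. The script was tested on simulated data. Alternatives covered scaling, background correction, filters on dim probes, blocks, the groups fitted, the 2 excluded arrays and each replicate left out. For normexp the median signal was used, since the files hold no mean signal column. Genes outside the family are named as the 3 largest called changes of a list or the 5 profiles most like the family's, and neighbours by position. The members and lists were chosen with earlier results of these data known. Some genes of the marker and receptor lists are not reported here. Other software was data.table (1.17.8), statmod (1.5.0), Biopython (1.88), Python (3.11.15), pandas (2.3.3), numpy (2.4.6) and matplotlib (3.10.9).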

Additional observations from a re-analysis of the deposited data

Results flagged for a closer look

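The 2 arrays labelled excluded, which hold replicate 3 of IFN beta, one at 10 and the other at 100 IU/ml, entered no comparison of the report, and all 5 Ifit genes stood far above untreated cells on both. At 10 IU/ml the array gave 5.43 for Ifit1, where the kept samples gave -1.22 and -1.20, and 3.20 for Ifit2, where they gave -0.57 and -0.63. Ifit3 stood at 6.64, Ifit3b at 5.78 and Ifit1bl1 at 2.30 on the same array. At 100 IU/ml the levels were 5.86 for Ifit1, 4.36 for Ifit2, 7.11 for Ifit3, 6.36 for Ifit3b and 3.43 for Ifit1bl1. For the 4 genes other than Ifit1bl1, these values lay from 3.81 (Ifit2 at 10 IU/ml) to 7.59 (Ifit3b at 100 IU/ml) above the highest untreated sample. Ifit1bl1 had no untreated array well above background, so no exact gap is given. The sample of 1000 IU/ml IFN beta from the same date gave 5.90 for Ifit1, 4.62 for Ifit2, 7.01 for Ifit3, 6.52 for Ifit3b and 3.85 for Ifit1bl1. What sets these arrays apart was not tested.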

How the results depend on the processing

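The 5 Ifit genes gave 1600 log2 changes under the alternatives, of which 1486 kept their direction and their side of the threshold, 45 fell out of it, 35 passed it and 34 changed sign, 0 of these for a change that had been called. The number of Ifit genes called changed as follows. At 10 IU/ml IFN epsilon it was 0, and 1 with median scaling, with the authors' table, with slide as a block or with a trend in the spread, and 3 with the replicate block. With the replicate block it was 2 instead of 0 at 100 IU/ml IFN beta and in the comparison of the interferons at 100 IU/ml, and 3 instead of 0 from 10 to 100 IU/ml IFN epsilon. Fitting only the groups compared gave 2 at 1000 IU/ml IFN beta. With all 24 arrays it was 0 at 100 IU/ml and 1 at 1000 IU/ml IFN epsilon and 0 at 1000 IU/ml IFN beta. For the step from 100 to 1000 IU/ml IFN beta it was 1, and 2 with quantile normalization, with the percentile of detected probes or with normexp, 3 with median scaling, the authors' table or a trend, 4 with the replicate block, and 0 without a filter, with slide as a block, in the compared groups alone or with all 24 arrays. With normexp the 2 called for that step were Ifit3 and Ifit3b, and Ifit1bl1 lost its call (4.54, adjusted p = 0.0743). Leaving out replicates gave 0 to 1 at 10 IU/ml, 0 to 4 at 100 IU/ml and 0 to 5 at 1000 IU/ml IFN epsilon, 0 to 5 at 1000 IU/ml IFN beta, 0 to 1 between the interferons at 100 IU/ml and 0 to 4 for the last step of IFN beta. The replicate block also gave 5 instead of 4 at 100 IU/ml IFN epsilon and changed no other count of Ifit genes called, and normexp gave 3 there. The cause of these changes was not tested.

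Changes of sign outside the replicates left out were at 10 IU/ml IFN beta: -0.014 for Ifit2 with median scaling, -0.021 for Ifit3 and -0.076 for Ifit1bl1 with normexp, and for Ifit3b 0.60 with the replicate block, 0.092 with slide as a block and 2.84 with all 24 arrays. Between the interferons at 10 IU/ml Ifit2 turned to -0.54 with all 24 arrays. In the difference of dose changes, Ifit2 came to 0.032 with quantile normalization, 0.028 with the percentile of detected probes, 0.33 with the replicate block and 1.25 with all 24 arrays, and Ifit1bl1 to 0.45 with normexp and 1.55 with all 24 arrays. With replicates left out, Ifit3 at 10 IU/ml IFN beta ranged from -0.43 to 0.86, Ifit3b from -0.58 to 0.76 and Ifit1bl1 from -0.38 to 0.83. Between the interferons at 1000 IU/ml they gave -0.31 to 0.73 for Ifit1, -0.10 to 1.68 for Ifit2 and -0.11 to 1.39 for Ifit3b, and the difference of dose changes ran from -0.83 to 1.08 for Ifit2 and from -3.71 to 0.52 for Ifit1bl1.

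Numbers of all genes called also moved. With the replicate block they went at 10, 100 and 1000 IU/ml IFN epsilon from 29, 152 and 333 to 72, 234 and 1170, and at 100 and 1000 IU/ml IFN beta from 16 and 230 to 42 and 497. Between the interferons at 100 IU/ml the block moved 13 to 53, from 10 to 100 IU/ml IFN epsilon 10 to 53, and from 100 to 1000 IU/ml IFN beta 72 to 130. Between the interferons at 10 IU/ml the highest count was 22, with a trend, against 14. With all 24 arrays these counts were 0, except 71 at 1000 IU/ml IFN epsilon. Median scaling put the median of all genes at -0.43 at 1000 IU/ml IFN epsilon, against -0.05, and the 5 Ifit genes were still called there. Ifit1bl1 lay near background on the untreated arrays, and with normexp its change at 100 IU/ml IFN epsilon was 4.00 (adjusted p = 0.0543), so that its call was lost; its values against untreated cells or 10 IU/ml IFN beta are measured signals, not exact changes.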
